A study of Mus musculus with 6 samples.

Results

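The p53 target genes here are Trp53, which encodes the transcription factor p53, and 34 genes listed as its direct targets. The list covers growth arrest, cell death, DNA repair and metabolism, and p53 control of each gene in mouse liver was not tested. The genes were followed in RNA sequencing of whole liver from 6 mice, and all 35 were found by symbol among the 54532 genes of the count table. The 3 controls were C57BL/6J/Rj mice of the genotype LysM+/+ Cd44flox/flox, and the 3 knockouts were littermates of the genotype LysMcre/+ Cd44flox/flox. Every mouse therefore carried floxed Cd44 on both alleles, and the knockouts alone carried Cre at the LysM (Lyz2) locus, which is active in macrophages, monocytes and neutrophils. All 6 had free access for 10 days to the Lieber-DeCarli liquid diet, which held 6% ethanol by volume, were then gavaged with 5 g ethanol per kg (day 11), and livers were collected 9 hours after that dose. Their age is not stated. Neither mice without ethanol nor mice with Cre and unfloxed Cd44 were analysed here, and a difference due to Cre or to the altered Lyz2 allele cannot be told apart from one due to the loss of Cd44.

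The p53 protein is kept scarce by Mdm2, a ubiquitin ligase whose own gene is a p53 target, so the pathway carries its brake within it. DNA damage, oxidative stress or nucleolar stress stabilises the protein, which then binds response elements built from a pair of 10-base elements and raises transcription of its targets. Because that control acts on the protein, the level of Trp53 messenger RNA is a poor guide to p53 activity, and the levels of its targets are commonly used as a readout. In liver, p53 targets are induced by hepatocyte injury and by genotoxic stress, and several of them (Cdkn1a, Gdf15, Btg2, Gadd45a) also answer to other stress and growth signals.

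Matches to the p53 consensus are shown here from promoter windows, because some of these genes carry letters close to the p53 consensus near a RefSeq start. RefSeq promoter windows (GRCm38.p6, 250 bases before to 50 bases after a start) were held for 27 of the 35 genes. They were searched for the p53 consensus, 2 elements of 10 bases separated by 0 to 13 bases, with the core C and G of each element kept and at most 2 mismatches over both. That search reads both strands at once, because the consensus is its own reverse complement, and overlapping matches were counted once per gene. Matches were present in 6 of the 27 genes (22.2%) and in 4.71% of the 27025 symbols with a window. With a spacer of 0 or 1 base they were present in 4 genes (14.8%), Bax, Ccng1, Cdkn1a and Gtse1, and in 0.807% of all symbols. The 6 matches are printed 5′ to 3′ on the gene's strand, with the pair of elements in capitals and the spacer and flanks in lower case.
Cdkn1a: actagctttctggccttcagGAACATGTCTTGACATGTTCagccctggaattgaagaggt
Ccng1: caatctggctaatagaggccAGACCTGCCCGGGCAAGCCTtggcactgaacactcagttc
Gtse1: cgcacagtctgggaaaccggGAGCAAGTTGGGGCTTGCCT
Bax: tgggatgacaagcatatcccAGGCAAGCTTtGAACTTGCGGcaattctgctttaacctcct
Sesn1: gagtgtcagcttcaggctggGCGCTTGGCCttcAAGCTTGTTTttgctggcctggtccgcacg
Gadd45a: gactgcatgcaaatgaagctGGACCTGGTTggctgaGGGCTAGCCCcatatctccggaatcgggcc
The printed stretches lie at chr17:29090908-29090967 (plus strand) for Cdkn1a, chr11:40755442-40755501 (minus strand) for Ccng1, chr15:85859925-85859964 (plus strand) for Gtse1, chr7:45467059-45467119 (minus strand) for Bax, chr10:41887233-41887295 (plus strand) for Sesn1 and chr6:67037418-67037483 (minus strand) for Gadd45a. The elements of Cdkn1a, Ccng1 and Gtse1 carried 1 mismatch and no spacer, and that of Gtse1 began 1 base before a RefSeq start of that gene. Those of Bax, Sesn1 and Gadd45a carried 2 mismatches, with spacers of 1, 3 and 6 bases. The Sesn1 match lay before a RefSeq start at chr10:41887439, inside the annotated gene, which begins at 41809935. Which start of each gene was used in these livers was not examined. A match is a description of letters, and binding of p53 was not measured in these livers.

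The labels were checked on the targeted gene. Levels are given as CPM, counts per 1000000 counts of the library after scaling with edgeR's trimmed mean of M values (TMM), in the order of mice 1, 2 and 3 of each group. Cd44 stood at 32.6, 34.8 and 26.4 CPM in the controls against 2.11, 1.92 and 3.01 CPM in the knockouts (log2 −3.73, SE 0.20, adjusted p = 9.07e-05), and Lyz2, the site of the Cre insertion, at 195, 218 and 235 CPM in the controls against 41.3, 36.95 and 66.5 CPM in the knockouts (log2 −2.16, SE 0.22, adjusted p = 0.000756). Here and throughout, log2 is the fitted log2 fold change of knockout against control and SE its standard error. Library totals were 18428224 to 24042917 counts, and 3 counts correspond to 0.119 to 0.148 CPM. Hepatocyte markers had the highest summed level of the cell marker lists in all libraries. Over 10 markers it was 69420 to 83280 CPM in the controls and 97950 to 136400 CPM in the knockouts, where 5 were higher and none lower. Of 12 macrophage and shared myeloid markers 11 were lower in the knockouts (summed level 911 to 964 CPM in the controls and 271 to 530.1 CPM in the knockouts). That list includes Lyz2, and without it 10 of 11 were lower (676 to 769 against 235 to 464 CPM). Also lower were 5 of 6 monocyte markers (25.44 to 41.02 against 9.86 to 12.96 CPM) and 4 of 5 tested neutrophil markers (13.98 to 27.48 against 2.88 to 7.89 CPM). None of 11 endothelial markers and none of 5 tested cholangiocyte markers passed by edgeR (2 and 1 had an unadjusted p under 0.05). Of 7 stellate cell markers 3 were lower and 1 higher. Beside these counts of markers, 13.1% of all genes tested were lower and 11.9% higher. The summed B cell and the summed T and NK cell markers were each at most 6.05 CPM in every liver. The part that these shifts in cell markers have in the changes of the p53 target genes was not tested.

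In the knockout livers 19 of the 35 p53 target genes were lower, 1 was higher and 15 did not pass the test. The threshold was an adjusted p of 0.05 in edgeR's quasi-likelihood test, with Benjamini-Hochberg adjustment over the 14758 genes that passed a filter on low counts, which all 35 members passed. Over all genes tested, 13.1% were lower and 11.9% higher, beside which 54.3% of the members fell and 2.86% rose. The decreases ran from 1.43-fold to 9.30-fold, and 13 of the 35 were at least 2-fold lower (37.1%), where 7.82% of all genes were. The median log2 fold change, knockout against control, was −0.75 over the members and −0.01 over all genes tested. In 20 members every knockout liver lay below every control (57.1%), against 22.5% of all genes, and in 1 (Dcxr) every knockout lay above every control, against 21.4% of all genes. The largest decreases belonged to Phlda3, Eda2r, Tnfrsf10b, Btg2 and Gtse1, each more than 4-fold lower. Of the 6 genes with a printed consensus match, Cdkn1a, Ccng1, Gtse1 and Bax fell, and Sesn1 and Gadd45a did not pass, beside 54.3% of all members that fell. A link between a match and a decrease was not tested. Whole liver was sequenced, so fewer cells of a type and less RNA per cell cannot be told apart.

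**Figure D1:**
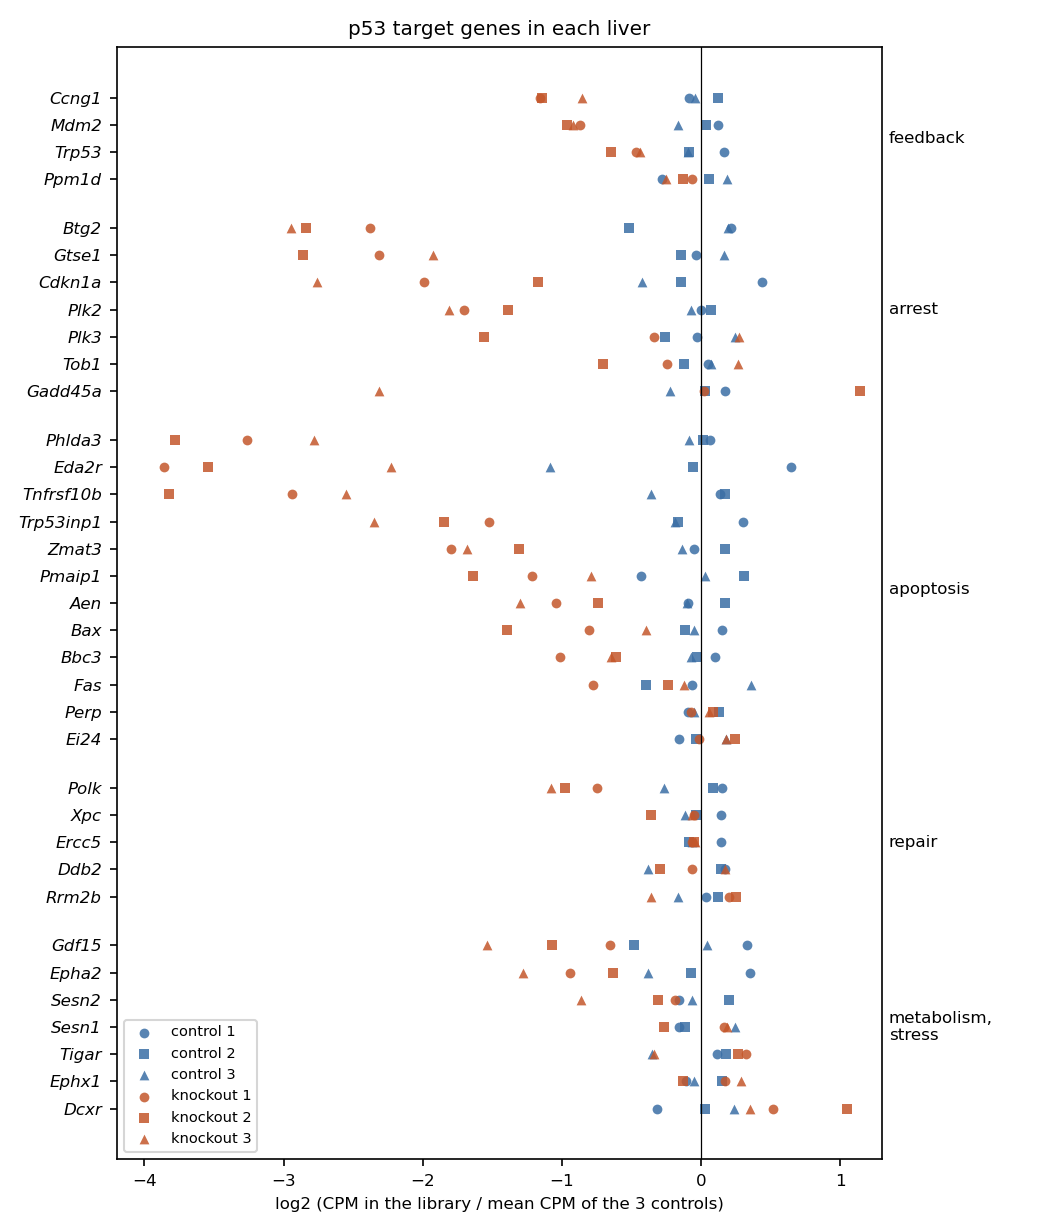
Each row is a p53 target gene and each point a liver, placed at the log2 ratio of its CPM to the mean of the 3 controls (0 on the axis). Knockout livers (orange) lie left of every control (blue) in 20 rows, while the repair genes other than Polk, and Perp, Ei24, Tigar and Ephx1, have both groups mixed around 0.

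The counts were also processed in 16 other ways. Between 15 and 19 members were lower when each liver was left out in turn. Under the other alternatives 19 were lower, except for 20 with scaling by library totals and 13 with scaling on the endothelial markers alone, under which the median of all genes was −0.26 and 0.20 on the log2 scale. Of the 19, the 12 named Cdkn1a, Mdm2, Phlda3, Ccng1, Trp53inp1, Btg2, Aen, Zmat3, Eda2r, Plk2, Tnfrsf10b and Gtse1 passed under all of them, and the alternatives that end the call of the other members are named beside each.

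p53 and the genes that feed back on it formed the first group, in which 3 of 4 fell (75%, beside 13.1% of all genes tested). Trp53 (ENSMUSG00000059552, chromosome 11, 69580359 to 69591873, plus strand) stood at 36.97, 31.1 and 31.01 CPM in the controls against 23.9, 21.1 and 24.4 CPM in the knockouts. All 3 knockouts lay below the lowest control, a 1.43-fold decrease (log2 −0.51, SE 0.12, adjusted p = 0.0175), the smallest of the 19. It did not pass with endothelial scaling or without control liver 1 or knockout liver 1, with adjusted p values of 0.00522 to 0.424 over the 16 alternatives.

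Mdm2, the ubiquitin ligase that removes p53 and is induced by it, fell more than Trp53 did in fitted fold. Mdm2 (ENSMUSG00000020184, chromosome 10, 117688875 to 117710758, minus strand) stood at 80.6, 75.9 and 66.01 CPM in the controls against 40.7, 38.1 and 39.2 CPM in the knockouts, with the 3 knockouts close together and well apart from the controls (1.89-fold lower, log2 −0.92, SE 0.11, adjusted p = 0.0014). The CPM of Mdm2 per CPM of Trp53 was 2.18, 2.44 and 2.13 in the controls and 1.70, 1.80 and 1.61 in the knockouts, so the ratio was lower in every knockout liver too. Ccng1, cyclin G1, which brings a phosphatase to Mdm2, had 105, 122 and 109 CPM in the controls against 50.2, 50.8 and 61.96 CPM in the knockouts (2.06-fold lower, log2 −1.04, SE 0.13, adjusted p = 0.00124). Its groups did not overlap, and its consensus match is among those printed above. Ppm1d, the phosphatase Wip1, which switches off p53 signalling, stood at 7.62 ± 1.22 against 6.89 ± 0.446 CPM with overlapping groups (adjusted p = 0.588, edgeR).

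**Figure D2:**
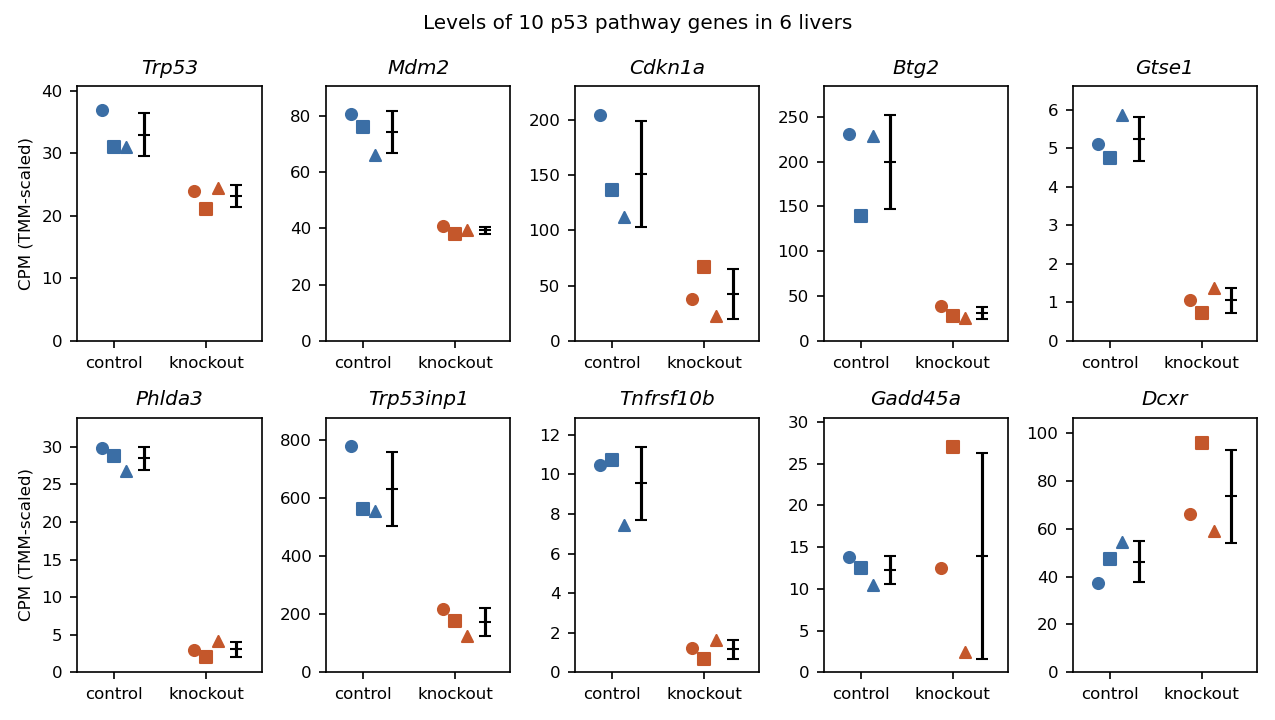
TMM-scaled CPM of 10 members in the 3 control (blue) and 3 knockout (orange) livers, with marker shapes for mouse 1 (circle), 2 (square) and 3 (triangle) and the mean with SD beside them. Every axis starts at 0, and knockout livers lie below every control for all but Gadd45a, whose knockouts spread from 2.46 to 27.0 CPM, and Dcxr, which was higher.

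Among the 7 arrest and antiproliferative targets 4 fell (57.1%, beside 13.1% of all genes tested), led by Btg2, and 3 did not pass. Cdkn1a (ENSMUSG00000023067, chromosome 17, 29090976 to 29100727, plus strand), which encodes the cyclin-dependent kinase inhibitor p21, stood at 204, 137 and 112 CPM in the controls against 37.97, 67.2 and 22.3 CPM in the knockouts. Even the highest knockout, liver 2, lay below the lowest control, and the decrease was 3.56-fold (log2 −1.83, SE 0.38, adjusted p = 0.0109). The spread within each group was wide, with knockout liver 3 lowest of all 6.

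Btg2 and Tob1 belong to 1 family of antiproliferative proteins that promote removal of poly(A) tails. Btg2 (ENSMUSG00000020423, chromosome 1, 134075170 to 134079120, minus strand) stood at 231, 139 and 228 CPM in the controls against 38.4, 27.9 and 25.9 CPM in the knockouts, a 6.50-fold decrease with no overlap (log2 −2.70, SE 0.24, adjusted p = 0.000518). Tob1 stood at 213, 188 and 215 CPM in the controls against 173, 126 and 246 CPM in the knockouts, and its groups overlapped (adjusted p = 0.6, edgeR). The CPM of Btg2 per CPM of Tob1 was 1.09, 0.741 and 1.06 in the controls and 0.222, 0.221 and 0.105 in the knockouts. The ratio was thus lower in each knockout liver than in any control.

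Of the polo-like kinases Plk2 and Plk3, stress-responsive relatives of the mitotic kinase Plk1, Plk2 fell and Plk3 did not pass. Plk2 (ENSMUSG00000021701, chromosome 13, 110395046 to 110400844, plus strand) stood at 27.5, 28.9 and 26.1 CPM in the controls against 8.44, 10.5 and 7.84 CPM in the knockouts (3.08-fold lower, log2 −1.62, SE 0.14, adjusted p = 0.000492), with little spread within either group. Plk3 stood at 243, 207 and 294 CPM in the controls against 196, 83.9 and 299 CPM in the knockouts, so that knockout liver 3 exceeded every control while knockout liver 2 lay far below (adjusted p = 0.525, edgeR). The difference between the changes of these kinases was not tested, and the CPM of Plk2 per CPM of Plk3 overlapped between groups (0.0888 to 0.139 in the controls and 0.0262 to 0.125 in the knockouts).

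Gtse1 encodes a microtubule-binding protein of the late cell cycle that also moves p53 out of the nucleus. Gtse1 (ENSMUSG00000022385, chromosome 15, 85859745 to 85876573, plus strand) stood at 5.12, 4.74 and 5.87 CPM in the controls against 1.06, 0.722 and 1.38 CPM in the knockouts, a 4.97-fold decrease at a low level (log2 −2.31, SE 0.28, adjusted p = 0.00124). Gadd45a, a stress sensor named for growth arrest and DNA damage, stood at 13.8, 12.5 and 10.5 CPM in the controls against 12.5, 26.99 and 2.46 CPM in the knockouts. Its controls were close together, while knockout livers 2 and 3 held the highest and the lowest value of all 6 (adjusted p = 0.853, edgeR). Without knockout liver 2 the log2 change of Gadd45a was −0.71 instead of 0.19, and it did not pass either way (adjusted p = 0.376 without that liver).

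Of the 12 apoptosis and death receptor targets 9 were lower (75%, beside 13.1% of all genes tested), none was higher and 3 did not pass. The 3 members with the largest decreases were among the 9. The median log2 change was −1.09 here and −1.62 in the arrest group. Phlda3 (ENSMUSG00000041801, chromosome 1, 135766119 to 135769136, plus strand), which encodes a pleckstrin-homology protein that holds back the survival kinase Akt, stood at 29.8, 28.8 and 26.8 CPM in the controls against 2.97, 2.07 and 4.14 CPM in the knockouts. It was 9.30-fold lower (log2 −3.22, SE 0.22, adjusted p = 0.000179), and ranked 22 by p-value among the 14758 genes tested. The spread within each group was small beside the gap between them.

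Of the 3 receptors in this group, all of the tumour necrosis factor receptor family, Tnfrsf10b and Eda2r fell and Fas did not pass. Tnfrsf10b (ENSMUSG00000022074, chromosome 14, 69767472 to 69784411, plus strand), a receptor for the death ligand TRAIL, stood at 10.5, 10.7 and 7.44 CPM in the controls against 1.25, 0.674 and 1.63 CPM in the knockouts (8.06-fold lower, log2 −3.01, SE 0.31, adjusted p = 0.000812). Eda2r, a receptor for ectodysplasin A2, stood at 18.5, 11.3 and 5.57 CPM in the controls against 0.815, 1.01 and 2.51 CPM in the knockouts. The Eda2r controls differed more than 3-fold among themselves and still lay above every knockout (8.16-fold lower, log2 −3.03, SE 0.53, adjusted p = 0.00535). The log2 change of Eda2r was −2.53 without control liver 1 and −3.68 without knockout liver 3. Fas, the receptor for Fas ligand, stood at 19.7, 15.7 and 26.4 CPM in the controls against 12.03, 17.4 and 18.9 CPM in the knockouts, with overlapping groups (adjusted p = 0.288, edgeR).

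Bax, Bbc3 and Pmaip1, whose proteins act at mitochondria, fell as well. Bax, which forms pores in the outer mitochondrial membrane, stood at 46.4, 38.6 and 40.4 CPM in the controls against 23.97, 15.9 and 31.8 CPM in the knockouts (1.75-fold lower, log2 −0.81, SE 0.22, adjusted p = 0.0315). Bbc3, which encodes the BH3-only protein PUMA, stood at 17.2, 15.7 and 15.3 CPM in the controls against 7.96, 10.5 and 10.3 CPM in the knockouts (1.68-fold lower, log2 −0.75, SE 0.15, adjusted p = 0.00878). Pmaip1, which encodes the BH3-only protein NOXA, stood at 3.22, 5.37 and 4.44 CPM in the controls against 1.87, 1.40 and 2.51 CPM in the knockouts (2.25-fold lower, log2 −1.17, SE 0.30, adjusted p = 0.0239). None of these 3 overlapped between groups. With endothelial scaling none of the 3 passed (adjusted p = 0.22, 0.109 and 0.0846 by edgeR), and Bax also lost its call without any 1 control or without knockout liver 1, and Pmaip1 without control liver 2 or 3 or knockout liver 1 or 2.

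Other targets tied to death or survival of the cell fell as well. Trp53inp1 (ENSMUSG00000028211, chromosome 4, 11156431 to 11174379, plus strand), which encodes a p53-induced nuclear protein that takes part in autophagy, was the most abundant of these per length and stood at 781, 564 and 555 CPM in the controls against 220.4, 176 and 125 CPM in the knockouts (3.65-fold lower, log2 −1.87, SE 0.23, adjusted p = 0.00136). Zmat3, an RNA-binding zinc-finger protein, stood at 40.9, 47.7 and 38.7 CPM in the controls against 12.2, 17.1 and 13.2 CPM in the knockouts (2.99-fold lower, log2 −1.58, SE 0.16, adjusted p = 0.00071). Aen, an exonuclease that acts in apoptosis, stood at 43.7, 52.6 and 43.5 CPM in the controls against 22.6, 27.9 and 18.9 CPM in the knockouts (2.01-fold lower, log2 −1.01, SE 0.16, adjusted p = 0.00375). All 3 separated the groups completely. By contrast, Perp, a junctional membrane protein (157 ± 13.1 against 160 ± 9.30 CPM, adjusted p = 0.901), and Ei24, a membrane protein of the endoplasmic reticulum (223 ± 26.6 against 245 ± 22.3 CPM, adjusted p = 0.489), had overlapping groups and did not pass the edgeR test.

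**Figure D3:**
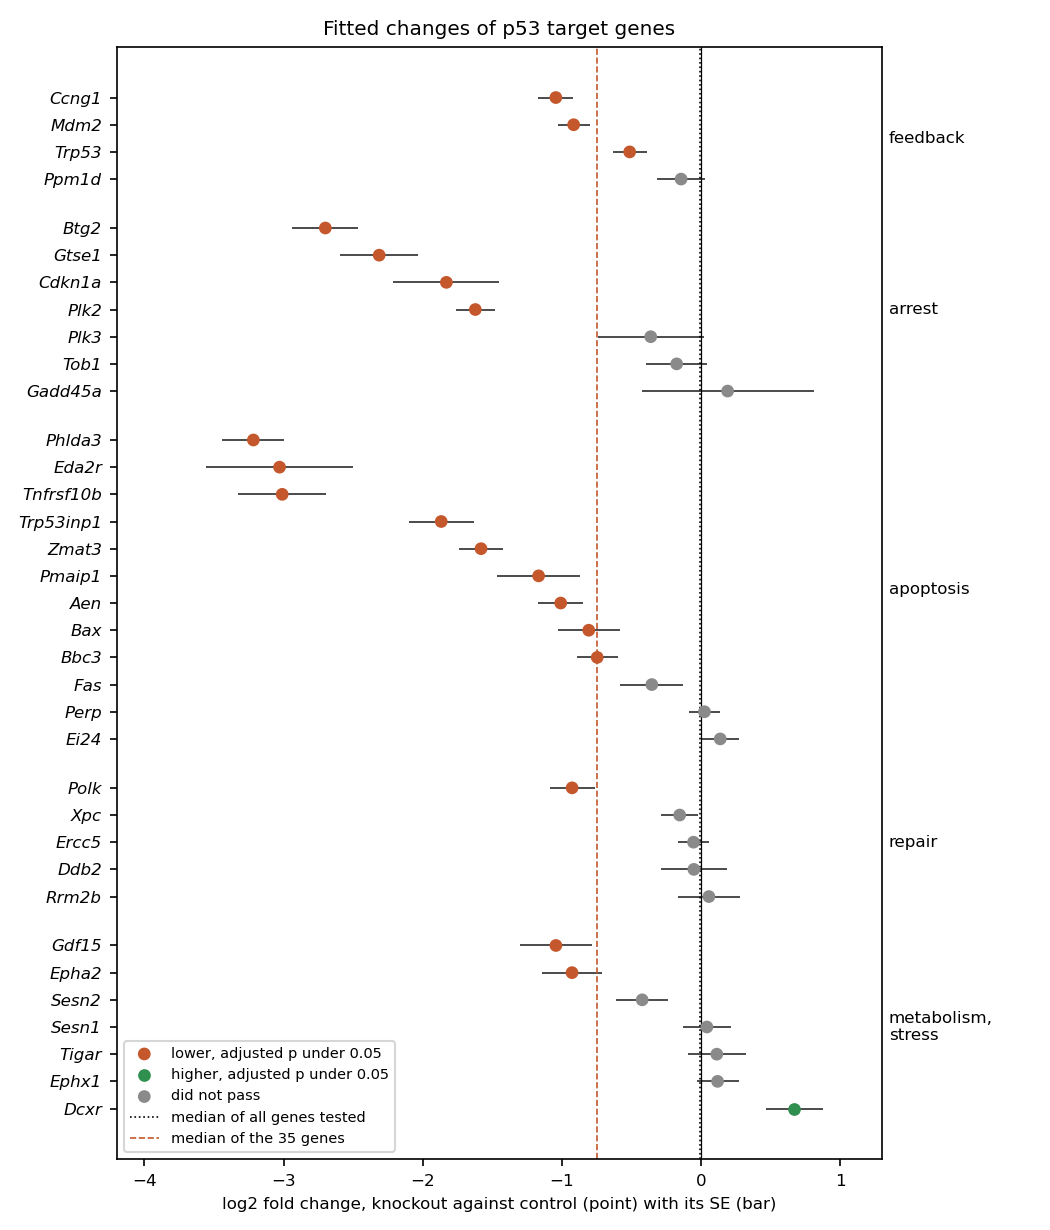
Fitted log2 fold changes of the 35 genes (points) with their SE (bars), grouped by role, with the median of the members at −0.75 (dashed) and that of all genes tested at −0.01 (dotted). Orange points are the 19 genes lower and the green point the 1 gene higher at an adjusted p under 0.05, and grey points are the 15 that did not pass.

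Among the 5 DNA repair and nucleotide supply targets 1 fell (20%, beside 13.1% of all genes tested) and 4 did not pass. Polk, the translesion DNA polymerase kappa, stood at 17.7, 16.8 and 13.2 CPM in the controls against 9.44, 8.08 and 7.54 CPM in the knockouts (1.90-fold lower, log2 −0.93, SE 0.16, adjusted p = 0.00532), with no overlap, and its adjusted p was 0.0581 with endothelial scaling. The damage-recognition genes of nucleotide excision repair stood at 23.4 ± 2.21 against 21.1 ± 2.47 CPM for Xpc (adjusted p = 0.429, edgeR). The matching values were 3.90 ± 0.784 against 3.77 ± 0.606 CPM for Ddb2 (adjusted p = 0.9, edgeR), which overlaps exons of the more highly counted gene Acp2 on the opposite strand and is therefore uncertain. The repair nuclease gene Ercc5 stood at 19.5 ± 1.73 against 18.8 ± 0.155 CPM (adjusted p = 0.764, edgeR), and Rrm2b, the p53-induced subunit of ribonucleotide reductase, at 4.50 ± 0.452 against 4.67 ± 1.02 CPM (adjusted p = 0.884, edgeR). The log2 changes of these 4 genes had standard errors of 0.11 to 0.24, and their groups overlapped.

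Metabolic, stress and signalling targets were mixed, with 2 lower, 1 higher and 4 that did not pass. The shares were 28.6% lower and 14.3% higher, beside 13.1% and 11.9% of all genes tested. Gdf15, a stress-induced circulating cytokine, stood at 85.6, 48.9 and 70.2 CPM in the controls against 43.4, 32.5 and 23.5 CPM in the knockouts (2.06-fold lower, log2 −1.04, SE 0.26, adjusted p = 0.0207). Epha2, a receptor tyrosine kinase for ephrins, stood at 98.2, 73.2 and 59.1 CPM in the controls against 40.03, 49.5 and 31.6 CPM in the knockouts (1.90-fold lower, log2 −0.93, SE 0.22, adjusted p = 0.0173). Neither overlapped between groups. Gdf15 did not pass with endothelial scaling or without control liver 1 or 3, and Epha2 did not pass without control liver 1 or knockout liver 1 (highest adjusted p 0.0692 and 0.0592 by edgeR). Dcxr, dicarbonyl and L-xylulose reductase, was the 1 member that was higher, at 37.2, 47.2 and 54.3 CPM in the controls against 65.97, 95.6 and 59.1 CPM in the knockouts (1.59-fold higher, log2 0.67, SE 0.21, adjusted p = 0.046). Its call rested on the full set of livers and the scaling: it was lost under 8 of the 16 alternatives, among them library totals (log2 0.41, adjusted p = 0.127), the filter of 50 counts in 3 libraries (adjusted p = 0.0546) and 5 of 6 fits that left out 1 liver.

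The sestrins, which restrain the growth kinase complex mTORC1 when nutrients or redox balance fail, did not pass. Sesn2 stood at 34.00, 43.8 and 36.3 CPM in the controls against 33.4, 30.7 and 20.9 CPM in the knockouts, and each knockout lay below each control (log2 −0.42, SE 0.19, adjusted p = 0.131), and it passed only with scaling by library totals (log2 −0.68, adjusted p = 0.0257). Sesn1 stood at 12.98 ± 2.06 against 13.4 ± 2.24 CPM (adjusted p = 0.889, edgeR), and the CPM of Sesn2 per CPM of Sesn1 overlapped between groups. Tigar, a phosphatase that lowers glycolytic flux, stood at 15.97 ± 3.01 against 17.3 ± 4.04 CPM (adjusted p = 0.732, edgeR). Ephx1, the microsomal epoxide hydrolase that hepatocytes express strongly, stood at 569.8 ± 54.3 against 619 ± 89.1 CPM (adjusted p = 0.606, edgeR).

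Levels per length put the members in order of abundance. On the scale of CPM per kilobase of exon, the control means ran from 0.492 ± 0.0495 for Rrm2b to 292 ± 27.9 for Ephx1. Plk3 (97.9 ± 17.2), Trp53inp1 (97.9 ± 19.8), Tob1 (89.7 ± 6.55), Perp (80.6 ± 6.69) and Btg2 (72.8 ± 19.04) followed Ephx1 in the controls. Neighbours among these 5 differed by less than the SD of at least 1 of the pair, except Tob1 and Perp, whose means differed by more than the SD of either. In the knockouts Btg2 stood at 11.2 ± 2.45 and Trp53inp1 at 26.8 ± 7.41, below Perp (81.9 ± 4.77), Tob1 (79.5 ± 26.5) and Plk3 (76.2 ± 42.5). The 19 genes that fell ranged in control level from Pmaip1 (1.59 ± 0.395) to Trp53inp1. Together the 35 genes took 0.333% to 0.371% of all counts in the controls and 0.171% to 0.216% in the knockouts, and the groups did not overlap.

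**Figure D4:**
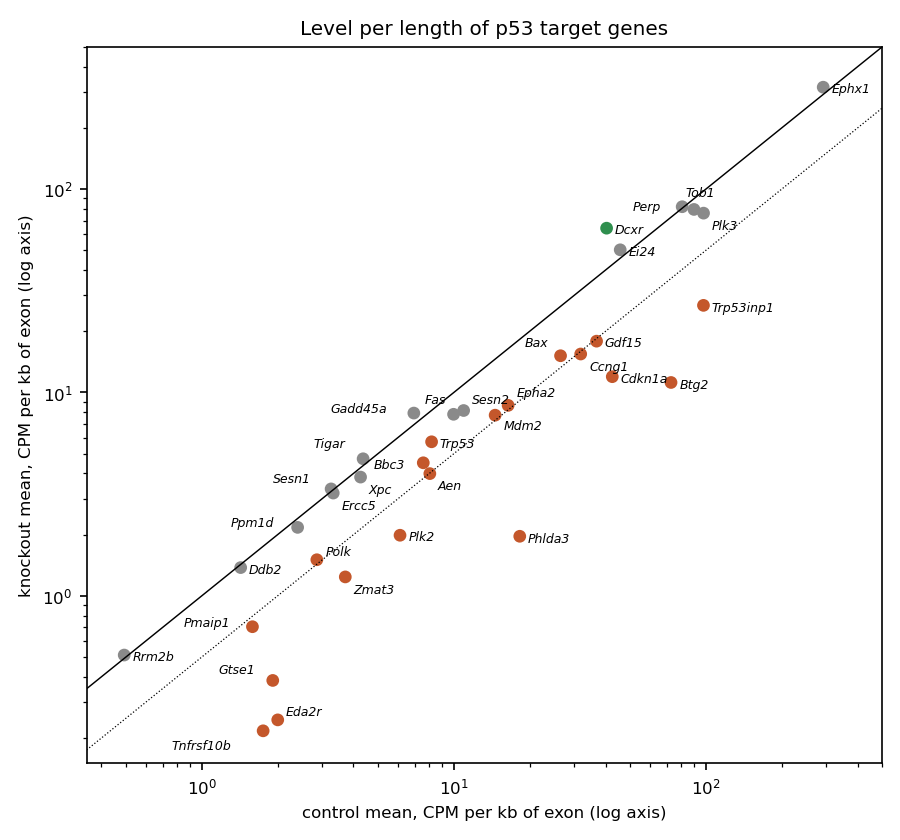
Mean level of each member in the controls (horizontal) and the knockouts (vertical), as CPM per kilobase of exon on log axes, with the line of equal levels (solid) and the line of a level 2-fold lower in the knockouts (dotted). The 19 genes that fell (orange) lie below the solid line at low and high abundance, 15 grey genes did not pass and Dcxr (green) was higher.

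The other p53 targets of the pathway, 33 further genes drawn up with earlier results of these data known, moved in both directions but mostly down. Of 31 tested, 15 fell, 2 rose and 14 did not pass (median log2 −0.47, against −0.01 over all genes). The shares were 48.4% lower and 6.45% higher, beside 13.1% and 11.9% of all genes tested. Apaf1, the scaffold of the apoptosome, stood at 18.5, 15.9 and 17.1 CPM in the controls against 6.57, 5.77 and 6.46 CPM in the knockouts (log2 −1.45, SE 0.13, adjusted p = 0.000584). The cytokine Lif fell from 1.88 ± 0.173 to 0.226 ± 0.0745 CPM and the phosphomannomutase Pmm1 from 24.3 ± 5.77 to 8.99 ± 1.80 CPM (adjusted p = 0.00124 and 0.0027, edgeR). These 3 were among the genes of smallest p in the list, and none overlapped between groups. Lif held only 3, 6 and 5 counts in the knockouts, which limits its fold. The 2 that rose encode mitochondrial enzymes of amino acid breakdown: glutaminase Gls2 from 289 ± 50.4 to 552 ± 124 CPM and Aldh4a1, which acts in proline breakdown, from 130.3 ± 16.3 to 204 ± 16.1 CPM (adjusted p = 0.0119 and 0.00943, edgeR).

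Few of the genes that regulate p53 passed: of 25 tested of 28, 1 was higher, none was lower and 24 did not pass (median log2 −0.01). The shares were 4% higher and 0% lower, beside 11.9% and 13.1% of all genes tested. By edgeR 4 of the 25 had an unadjusted p under 0.05, as had 5612 of all 14758 genes tested. The list holds kinases that sense DNA damage, acetyltransferases, ubiquitin ligases and deubiquitinases. DESeq2 and limma-voom also called none of them lower. With scaling by library totals 6 of the 25 were lower, beside 3698 of all 14758 genes tested. Kat5, the acetyltransferase Tip60, was higher (9.13 ± 1.11 to 13.1 ± 0.306 CPM, adjusted p = 0.0261, edgeR), and it lost its call with library totals or without control liver 2 or 3 or knockout liver 1 or 2. Mdm4, the partner of Mdm2 that binds p53 without being its classical target, stood at 50.5 ± 5.27 against 51.97 ± 2.40 CPM (adjusted p = 0.83, edgeR). The CPM of Mdm2 per CPM of Mdm4 was 1.44, 1.66 and 1.33 in the controls and 0.756, 0.719 and 0.797 in the knockouts. The p53 relatives Trp63 and Trp73 and the Mdm2 inhibitor gene Cdkn2a were at or near 0 counts and were not tested.

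Cell cycle genes that p53 is known to lower through p21 and the DREAM repressor were lower in the knockouts or did not pass. The part of p21, or of the lower myeloid markers, in the changes of the cell cycle genes was not tested. Of 13 tested of 15, 7 were lower in the knockouts (53.85%, beside 13.1% of all genes tested) and none higher (median log2 −2.13). Cdk1 stood at 2.15, 6.24 and 8.13 CPM in the controls against 1.44, 0.770 and 1.18 CPM in the knockouts (log2 −2.27, SE 0.49, adjusted p = 0.0127), and Top2a at 3.54, 7.30 and 12.9 CPM in the controls against 1.87, 0.433 and 2.42 CPM in the knockouts (log2 −2.33, SE 0.60, adjusted p = 0.0245). Mcm5 fell from 6.94 ± 4.20 to 1.88 ± 0.833 CPM and Ccna2 from 4.49 ± 3.01 to 1.02 ± 0.508 CPM (adjusted p = 0.0238 and 0.0366, edgeR). In all 4, control liver 1 was the lowest and control liver 3 the highest of the controls, and the groups did not overlap. They were the only 4 of the 13 tested with separate groups: the other 3 that passed, Plk1, Birc5 and Mki67, had control liver 1 within the range of the knockouts (0.755, 0.635 and 3.18 CPM). The number that fell depended on single livers: it was 13 of 15 tested without control liver 1, and 1 to 3 without any other liver. Leaving the low-count filter out gave 12 of 15, and asking for 50 counts in 3 libraries gave 4 of 7. limma-voom gave 3. Cdk1 passed under all 16 alternatives. Without control liver 3, Mcm5 had a log2 change of −1.24, Ccna2 of −1.53 and Top2a of −1.76, and none of these 3 passed. In Gtse1, itself a gene of the late cell cycle, control liver 1 stood with the other controls (5.12 against 4.74 and 5.87 CPM). The relation of the decrease in Gtse1 to that of the cell cycle genes was not tested.

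In a pair of stress programmes that share targets with p53, genes fell and none rose. Of 11 immediate early genes, which growth factors and stress switch on within minutes, 9 fell and none rose (median log2 −1.53). The share lower was 81.8%, beside 13.1% of all genes tested. Ier3 stood at 57.4, 20.1 and 23.6 CPM in the controls against 2.54, 2.02 and 4.29 CPM in the knockouts (log2 −3.52, SE 0.46, adjusted p = 0.0017), and Fos at 60.4, 26.2 and 95.4 CPM in the controls against 3.60, 10.3 and 4.09 CPM in the knockouts (log2 −3.34, SE 0.54, adjusted p = 0.00392). Fosb and Nr4a1 fell too (adjusted p = 0.0051 and 0.0051, edgeR). Ier3 had a log2 change of −2.88 without control liver 1. Fos had −2.83 without control liver 3 and −3.97 without knockout liver 2. Of 10 targets and factors of the integrated stress response, 4 fell (40%, beside 13.1% of all genes tested) and none rose (median log2 −1.06). With library totals 7 were lower, beside 3698 of all 14758 genes tested, and without control liver 1 the number was 2. The phosphatase subunit Ppp1r15a fell from 36.1 ± 5.65 to 15.9 ± 1.69 CPM (adjusted p = 0.00132), and the amino acid enzymes Psat1 and Asns and the mTORC1 inhibitor Ddit4 also fell (adjusted p = 0.0134, 0.0208 and 0.0467, edgeR). Without knockout liver 2, Asns had a log2 change of −2.09 and Ddit4 of −2.45 instead of −1.50 and −1.69. Asns did not pass without control liver 1 or 2 or knockout liver 1, Psat1 without knockout liver 1, and Ddit4 under 6 alternatives that include DESeq2. The part of these programmes in the changes of Btg2, Plk2, Gdf15 and the other shared targets was not tested.

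**Figure D5:**
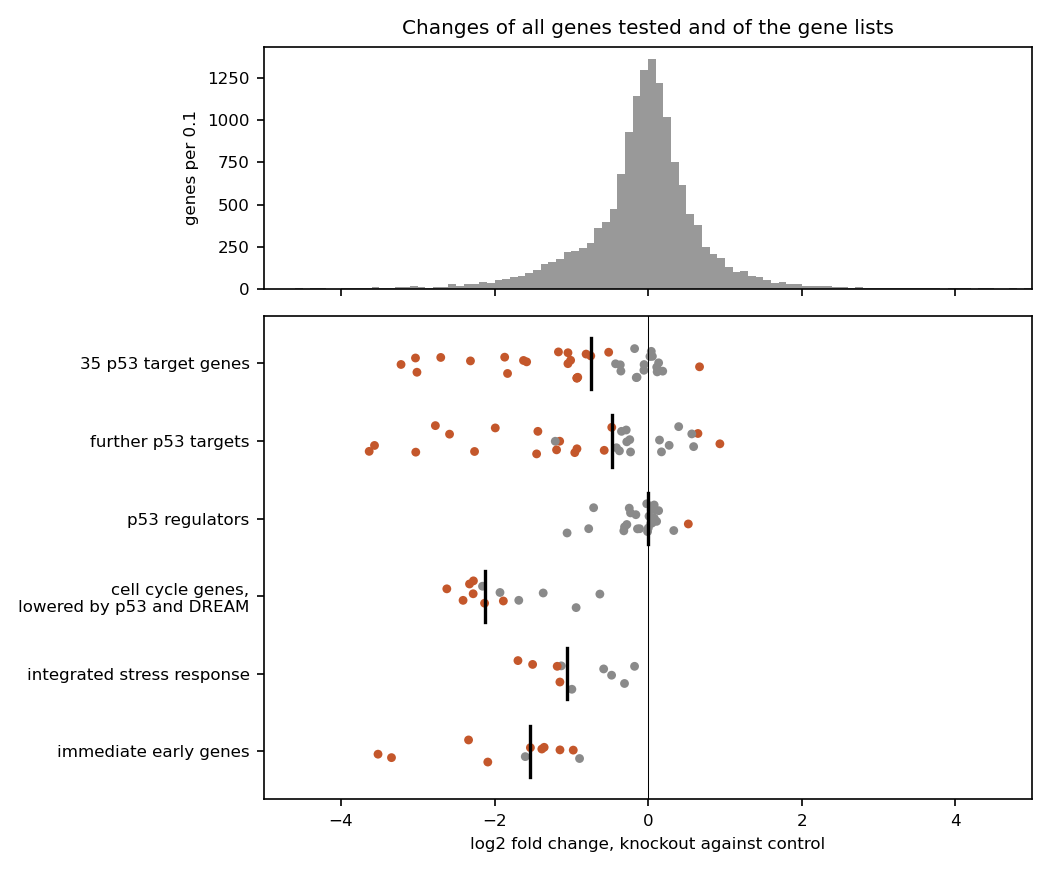
The upper panel counts all genes tested in bins of 0.1 of the log2 fold change, and the lower panel shows each tested gene of the 35 members and of the 5 further lists (orange where the gene passed, grey where it did not), with the list median as a black line. Medians lie at −0.75 for the members, −0.47 for further targets, −0.01 for regulators, −2.13 for cell cycle genes, −1.06 for the integrated stress response and −1.53 for immediate early genes, and genes beyond the axis are not drawn.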

How the data were processed

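Per the labels' protocols, whole-liver RNA was enriched for poly(A) messages on beads before cDNA synthesis, with 1 library for each of 6 mice. The values are raw counts for each Ensembl gene, as deposited by the authors. The names featureCounts 1.5.0-p3, StringTie 1.3.3b and HISAT2 2.0.5 and the build GRCm38.p6 come from the submitters' processing notes, which give them no role; the strand setting and the treatment of multiply mapped reads are not given in the sources used here. For that reason the 7 members that share exon bases with a gene on the opposite strand (Cdkn1a, Ddb2, Ei24, Gadd45a, Plk3, Rrm2b and Tigar) are uncertain to that extent.

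Identifiers were matched to GENCODE M21, and 54495 of 54532 matched. In R 4.3.3 the counts went through edgeR 4.0.16: filterByExpr on the groups, TMM factors, then the quasi-likelihood test with group as the only term. Every adjusted p is edgeR's with Benjamini-Hochberg adjustment over 14758 genes unless a sentence names another tool. The printed standard error is the log2 fold change divided by the square root of F. Levels per length use the union of exons. Values after ± are SD with n = 3 livers per group. The 2 groups come from the sample titles, which name separate mice. Scripts were tested on simulated counts. The members, lists and tests were chosen with earlier results of these data known. Each member was named, with values per liver where it passed; the other pathway lists are shown by at most 4 called genes each, taken in order of p, of which 1 is not reported here. Outside that rule, Gls2, Aldh4a1, Mdm4, Trp63, Trp73, Cdkn2a, Plk1, Birc5 and Mki67 and the genes of the closing section were picked with their values known.

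The alternatives were DESeq2 1.42.0, limma-voom (limma 3.58.1), relative log expression size factors, library totals, TMM on 11 endothelial markers, no filter, at least 50 counts in 3 libraries, protein-coding genes only, leaving out the 20 most abundant genes, the mouse number as a block, and leaving out each liver. Replicates differed by more than sampling noise (the chi-square of their counts was at least 24.5 times its degrees of freedom). Intervals and limits from 3 counts cover counting error only.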

Additional observations from a re-analysis of the deposited data

How the results depend on the processing

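Over all genes 1933 were lower and 1751 higher. With library totals, under which the median log2 change of all genes was −0.26 instead of −0.01, the numbers were 3698 lower and 904 higher, with endothelial scaling 955 lower and 1896 higher, and leaving out 1 liver gave 1183 to 1837 lower and 1086 to 1576 higher. Of the 35 members, 15 to 19 were lower without 1 liver and 0 to 1 higher, and 0 were higher with library totals, with the stricter filter or with the replicate block. No member that passed changed direction under any alternative, and members lost a call in 28 of 560 values and gained 1. Of the further targets 4 were higher with DESeq2, with endothelial scaling or with no filter, and without 1 liver 11 to 17 were lower and 2 to 4 higher. Of the p53 regulators 6 were lower and 0 higher with library totals, 1 was lower with the stricter filter, and 0 to 1 were higher without 1 liver. Of the cell cycle genes 3 were lower with limma-voom and 3 with the replicate block, 12 with no filter, 4 with the stricter filter and 1 to 13 without 1 liver. The integrated stress response had 7 lower with library totals and 2 to 6 without 1 liver, and the immediate early genes 7 to 10.

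Members that did not pass changed sign as follows, and none passed there. With library totals, log2 changes were −0.20 for Sesn1, −0.12 for Ei24, −0.23 for Perp, −0.21 for Rrm2b, −0.15 for Tigar, −0.13 for Ephx1 and −0.10 for Gadd45a. With endothelial scaling they were 0.18 for Ddb2, 0.077 for Xpc, 0.16 for Ercc5, 0.073 for Ppm1d and 0.085 for Tob1. Gadd45a stood at −0.36 with limma-voom and −0.25 with the replicate block. Leaving out 1 liver gave −0.032 to 0.20 for Sesn1, −0.0038 to 0.11 for Perp, −0.19 to 0.062 for Ddb2, −0.0755 to 0.037 for Ercc5, −0.011 to 0.30 for Tigar, −0.045 to 0.23 for Rrm2b, −0.82 to 0.0019 for Plk3, −0.45 to 0.035 for Tob1 and −0.71 to 0.69 for Gadd45a. The causes of these changes were not tested.

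No pairing of the livers by mouse number was seen: deviations of same-numbered livers correlated at −0.027, 0.044 and −0.018, below 0.1. None of the 3 controls correlated best with the knockout of its own number. With 3 livers per group these correlations cannot exclude a shared litter or batch. The replicate block gave 1648 lower and 1438 higher genes and left 19 members lower, with an adjusted p of 0.0542 for Dcxr. In Pmaip1, Tnfrsf10b, Eda2r and Gtse1 the knockouts held 14 to 51 counts, which limits their folds.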

Other observations

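Knockout livers 2 and 3 differed in several stress genes, an observation made after the values were seen. Knockout liver 2 held the highest knockout level of Cdkn1a (37.97, 67.2 and 22.3 CPM in knockouts 1, 2 and 3) and of Gadd45a (12.5, 26.99 and 2.46 CPM). The same liver was highest among the knockouts for the hepatic stress hormone Fgf21 (20.2, 144 and 17.9 CPM), for Asns (5.90, 12.9 and 4.24 CPM), for Ddit4 (20.4, 49.6 and 11.8 CPM) and for the early response factor Egr1 (25.1, 122 and 27.6 CPM). Of the 10 integrated stress response genes it was highest of the knockouts in 6, while knockout liver 1 was highest in 3 (Atf3 with 59.5, 19.7 and 8.63 CPM, Trib3 with 144, 79.96 and 40.7 CPM and Chac1 with 8.82, 4.47 and 4.44 CPM) and knockout liver 3 in 1. Knockout liver 2 was lowest among the knockouts for Phlda3 (2.97, 2.07 and 4.14 CPM), Tnfrsf10b (1.25, 0.674 and 1.63 CPM), Gtse1 (1.06, 0.722 and 1.38 CPM) and Plk3 (196, 83.9 and 299 CPM). Knockout liver 3 was lowest for 8 of the 19 members that fell, knockout liver 2 for 7 and knockout liver 1 for 4. Within the controls, liver 1 was highest for 12 of these 19, liver 2 for 6 and liver 3 for 1.

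Several further targets beyond those named by p-value combined low levels with large fitted decreases. Psrc1, a spindle protein, stood at 2.26, 3.34 and 3.22 CPM in the controls against 0.0959, 0.0481 and 0.592 CPM in the knockouts (adjusted p = 0.00554, edgeR), Ckap2 at 2.74, 4.30 and 5.65 CPM in the controls against 0.767, 0.144 and 0.937 CPM in the knockouts (adjusted p = 0.00745, edgeR), and the matrix protein Thbs1 at 10.6, 15.2 and 10.9 CPM in the controls against 1.20, 3.51 and 1.38 CPM in the knockouts (adjusted p = 0.00285, edgeR). Their groups did not overlap. The knockouts held only 2, 1 and 12 counts of Psrc1 and 16, 3 and 19 counts of Ckap2, which limits these decreases. Trp53cor1, the noncoding RNA upstream of Cdkn1a known as lincRNA-p21, was below the count filter (0.496 ± 0.196 against 0.177 ± 0.0986 CPM) and was not tested.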
